A study of Mus musculus with 30 samples.

Results

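The Period and cryptochrome repressors described here are 6 genes of the negative limb of the circadian clock, namely Per1, Per2, Per3, Cry1, Cry2 and Ciart. They were chosen by gene symbol among the 56951 symbols of the deposited tables, each symbol had 1 row, and all 6 passed the filter that left 12030 genes for testing (a mean over 20 reads and a mean over 0.5 FPKM, fragments per kilobase of exon, scaled to the mapped reads of the library). Poly(A) RNA was sequenced from gastrocnemius muscle (with the attached plantaris) of male wild-type C57BL/6J mice housed singly with a running wheel. All mice first lived for 2 weeks under a light-dark cycle and for 2 weeks in constant darkness. The LD group (14 mice) was then kept for 64 weeks on a light-dark cycle that did not shift, whereas the cycle of the ADV group (16 mice) was advanced by 8 hours every 4 days over the same 64 weeks, a model of chronic jet lag. Each mouse gave 1 library. The mice were killed at different hours of the light phase on a day when the ADV cycle coincided with the LD cycle, and the labels do not give the hour of a mouse, so a difference in clock phase, in sampling hour and in overall level cannot be told apart for a rhythmic gene.

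In the mammalian clock, CLOCK and BMAL1 bind E-box sequences and activate transcription of the Per and Cry genes, whose proteins enter the nucleus as a complex and repress CLOCK and BMAL1, closing a feedback loop of roughly a day. PER1, PER2 and PER3 share PAS domains and are marked by casein kinases for degradation, CRY1 and CRY2 are the direct inhibitors of the activator, and CIART (also called CHRONO) is a separate repressor that binds the same activator. Per1 and Per2 also respond to acute signals such as glucocorticoids and cAMP, and the transcripts of these repressors peak at different times of the day in muscle as in most tissues.

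The stretches of DNA upstream of the members whose transcripts differed between the groups, Per3, Cry1 and Ciart, are shown because their clock motifs differ. They were taken from RefSeq promoter windows (250 bases before to 50 bases after a gene's start, a table on GRCm38.p6 that matched 5 of the 6 symbols, not Per2), and each window matched GRCm39 exactly once. The stretches run 5′ to 3′ on the strand of the gene from base -250 to base -36 before the RefSeq start, and capitals mark an E-box (CACGTG), an E-prime box (CACGTT) or a D-box (TTATGTAA), searched on both strands. Per3 is at chr4:151129158-151129372, Cry1 at chr10:85020954-85021168 and Ciart at chr3:95789576-95789790 of GRCm39, all on the minus strand.
Per3: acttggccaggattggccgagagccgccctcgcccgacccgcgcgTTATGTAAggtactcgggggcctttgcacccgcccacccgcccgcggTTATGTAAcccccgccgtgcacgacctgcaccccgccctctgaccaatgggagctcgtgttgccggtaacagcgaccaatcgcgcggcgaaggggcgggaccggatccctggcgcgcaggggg
Cry1: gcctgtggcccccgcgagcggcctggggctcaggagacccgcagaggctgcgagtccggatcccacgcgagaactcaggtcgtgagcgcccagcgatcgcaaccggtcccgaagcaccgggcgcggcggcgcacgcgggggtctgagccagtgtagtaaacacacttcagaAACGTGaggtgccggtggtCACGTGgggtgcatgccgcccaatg
Ciart: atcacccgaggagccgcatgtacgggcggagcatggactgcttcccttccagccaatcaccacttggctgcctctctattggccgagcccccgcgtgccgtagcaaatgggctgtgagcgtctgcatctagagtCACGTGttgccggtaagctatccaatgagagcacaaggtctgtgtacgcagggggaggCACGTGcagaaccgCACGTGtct

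Ciart held 3 E-boxes in its window, which start 116, 58 and 44 bases before the RefSeq start. An E-box was found in 7.15% of the 32851 promoter windows and 3 or more in 0.0883%. Per3 held 2 D-boxes, the element bound by DBP, TEF, HLF and NFIL3, starting 205 and 158 bases before the start, where 0.938% of the windows held this D-box and 0.0213% held 2 or more. Cry1 held an E-box 60 bases and an E-prime box 79 bases before its start. Of the members not printed, Per1 had an E-box at base -166 and the other common D-box (TTATGCAA, in 0.743% of windows) at base -24 of the window at the start of its deposited transcript. Cry2 had an E-prime box at base -166 (in 4.68% of windows). The full cAMP response element (TGACGTCA, in 1.79% of windows) and the heat shock element GAANNTTC (in 7.86%) had no match in these windows, which says only that these letters are not there. The shorter site TGACG, which the full cAMP response element contains, was found in the windows of Per1, Cry1 and Cry2 and in 20.8% of all windows, and the ROR element core AGGTCA in that of Per1 and in 16.3%. A motif match is a description of the sequence and not evidence of binding.

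Read pairs counted on exons numbered between 18875468.5 and 28512674 per library, with medians of 21711467.5 in the LD group and 22152249 in the ADV group. The 6 muscle fibre markers (Acta1, Ckm, Myh4, Myh1, Myh2 and Mylpf) summed to between 39226 and 53471 FPKM in every library, and none of them had an FDR under 0.05 between the groups. Of the markers of other cells that passed the filter, 0 of 3 for leukocytes, 1 of 4 for endothelium, 0 of 4 for adipocytes, 0 of 3 for Schwann cells and 1 of 4 for fibroblasts had an FDR under 0.05. The summed adipocyte markers lay between 7.49 and 70.3 FPKM among LD mice and between 5.25 and 204 FPKM among ADV mice, and the summed Schwann cell markers between 11.9 and 27.6 and between 13.5 and 49.3 FPKM. Their part in the results was not tested. In whole muscle, fewer cells of a type and less RNA per cell cannot be told apart.

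Of the 6 repressors, 3 differed between the schedules, and not in the same direction. Per3 and Ciart were lower and Cry1 higher in the ADV group, while Per1, Per2 and Cry2 did not pass the test. By edgeR's quasi-likelihood test with an FDR under 0.05 (Benjamini-Hochberg adjustment over the 12030 genes) and a fold change over 1.3, 2.09% of all genes tested were called, and 10.8% had an FDR under 0.05 at any fold change. The members were chosen for their place in the clock and with earlier results of these libraries known, so their count against this background is a description. Their calls did not hold in a fit with a score of other clock genes as a covariate, which cannot separate the schedule from the state of the clock. With a score from 8 clock genes that are no members (the first principal component of Bmal1, Clock, Npas2, Nr1d1, Nr1d2, Dbp, Tef and Nfil3) as a covariate, the log2 fold changes of Per3, Cry1 and Ciart were 0.06, 0.16 and -0.14 (edgeR FDRs between 0.898 and 0.985), and 0 of all genes were called by edgeR, with 720 at an unadjusted p under 0.05. The score ranged from -4.47 to 1.40 in LD mice (mean -1.73) and from -1.52 to 2.55 in ADV mice (mean 1.52), so it separates the groups in part. The schedule and the state of the clock cannot be told apart where it does. The loss of calls took in all genes and is not particular to the members.

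**Figure D1:**
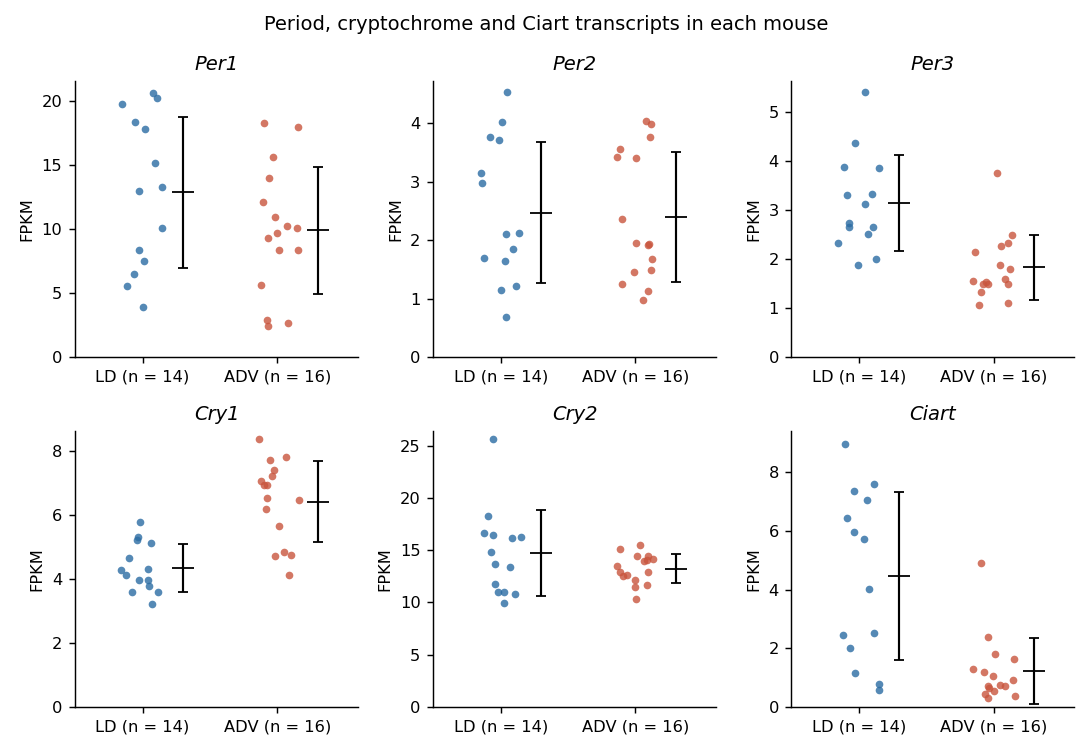
FPKM of the 6 repressors in each mouse of the LD group (blue, n = 14) and the ADV group (red, n = 16), with the mean and SD beside the points. Per3 and Ciart lie lower and Cry1 higher in ADV mice, and the Cry2 points of ADV mice lie close together between 10.3 and 15.5 FPKM.

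Per1 (ENSMUST00000021271.14; chromosome 11 of GRCm39, 68989774 to 69000786, plus strand, 23 exons in GENCODE vM39) is the Period gene that responds fastest to acute signals. LD mice lay between 3.92 and 20.6 FPKM (median 13.1), and ADV mice between 2.41 and 18.3 FPKM (median 9.89). Of the 16 ADV mice, 12 were below the LD median, and 3, mice 26, 27 and 28 at 2.93, 2.67 and 2.41 FPKM, were below the lowest LD mouse. The means were 12.9 ± 5.91 (SD, n = 14) and 9.90 ± 4.97 FPKM (n = 16). ADV over LD, the log2 fold change by edgeR was -0.39 (standard error, SE, 0.28, FDR 0.344), with an approximate 95% interval from -0.96 to 0.17. The ranges overlapped over most of their length, and the difference did not pass the test.

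Per2 (ENSMUST00000069620.10; chromosome 1, 91343704 to 91387046, minus strand, 23 exons), the Period gene whose loss alone disturbs behavioural rhythms most, had nearly the same level in both groups. It was between 0.68 and 4.53 FPKM in LD mice (median 2.12) and between 0.98 and 4.05 FPKM in ADV mice (median 1.94), and the means were 2.47 ± 1.21 and 2.40 ± 1.11 FPKM. In the ADV group 7 mice were above the LD median and 9 below. The log2 fold change was -0.07 (SE 0.25, FDR 0.877 by edgeR). The approximate 95% interval, from -0.57 to 0.44, leaves room for a difference of either sign.

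Per3 (ENSMUST00000103204.11; chromosome 4, 151088109 to 151129122, minus strand, 21 exons), a Period gene with a smaller part in keeping the rhythm, fell in the ADV group. Its level was between 1.87 and 5.41 FPKM in LD mice (median 2.92) and between 1.06 and 3.76 FPKM in ADV mice (median 1.57). Of the 16 ADV mice, 15 were below the LD median and 10 were below the lowest LD mouse. Only ADV mouse 21, at 3.76 FPKM, lay above the LD median. The means were 3.14 ± 0.97 and 1.83 ± 0.66 FPKM, a log2 fold change of -0.80 (SE 0.16, FDR 0.00255 by edgeR). In GENCODE vM39, Gm69183 on the other strand shares 4.9% of the exon bases of Per3, and whether the counting used the strand is not given in the sources used here.

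The summed FPKM of Per1, Per2 and Per3 was 18.5 ± 7.33 in the LD group and 14.1 ± 5.60 in the ADV group, and most of it was Per1 transcript. Within the Period genes, the order of Per2 and Per3 turned around. Per3 was above Per2 in 12 of 14 LD mice, and Per2 above Per3 in 13 of 16 ADV mice. The log2 ratio of Per2 to Per3 within a mouse was -0.47 ± 0.55 (SD) in the LD group and 0.31 ± 0.50 in the ADV group, a difference of 0.78 (two-sided permutation test over mice, p = 0.00023; 0.000493 after adjustment over the 15 pairs of members). This ratio was above the highest LD mouse in 9 of 16 ADV mice.

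Cry1 (ENSMUST00000020227.11; chromosome 10, 84967564 to 85020928, minus strand, 13 exons), the cryptochrome that peaks late in the cycle and the stronger repressor of the pair, was the one member that rose. LD mice were between 3.23 and 5.78 FPKM (median 4.20) and ADV mice between 4.12 and 8.39 FPKM (median 6.74). In the ADV group 15 of 16 mice exceeded the LD median and 11 the highest LD mouse, and 7 of the 14 LD mice were below the lowest ADV mouse. The lowest ADV mice were mouse 30 at 4.12, mouse 36 at 4.71, mouse 21 at 4.75 and mouse 35 at 4.84 FPKM. The means were 4.36 ± 0.76 and 6.43 ± 1.27 FPKM, a log2 fold change of 0.54 (SE 0.09, FDR 0.00142 by edgeR). Cry1 ranked 18 of the 12030 genes by p.

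Cry2 (ENSMUST00000090559.12; chromosome 2, 92233991 to 92264388, minus strand, 12 exons), the second cryptochrome, was the most abundant member in both groups. It was between 9.93 and 25.7 FPKM in LD mice (median 14.3) and between 10.3 and 15.5 FPKM in ADV mice (median 13.2). The means were 14.7 ± 4.12 and 13.2 ± 1.41 FPKM, a log2 fold change of -0.17 (SE 0.10, FDR 0.263 by edgeR) with an approximate 95% interval from -0.39 to 0.04. In the LD group 6 mice lay above the highest ADV mouse and 1 below the lowest. D930015M05Rik on the other strand shares 3.6% of the exon bases of Cry2.

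The ratio of Cry1 to Cry2 within a mouse went from 0.302 to 0.478 (geometric means), a difference of 0.67 on the log2 scale (permutation p = 0.00085, adjusted p = 0.00159), and was above the LD median in 15 of 16 ADV mice. The summed cryptochrome transcript was nearly equal, with means of 19.1 ± 3.82 FPKM (LD) and 19.7 ± 1.32 FPKM (ADV). Its span was 14.6 to 29.4 FPKM among LD mice and 17.6 to 21.8 FPKM among ADV mice. The upper end among LD mice was mouse 33 alone, with Cry2 at 25.7 FPKM, where the next highest LD mouse, 30, had 18.2 FPKM.

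Ciart (ENSMUST00000036418.10; chromosome 3, 95785817 to 95789543, minus strand, 6 exons) had the largest difference and the largest spread of the 6 genes. LD mice spanned 0.58 to 8.97 FPKM (median 4.87) and ADV mice 0.30 to 4.91 FPKM (median 0.83), which is a 15.4-fold range in the LD group and a 16.5-fold range in the ADV group. Of the 16 ADV mice, 15 were below the LD median, and the exception, mouse 25 at 4.91 FPKM, was also the ADV mouse with the most Per1. Conversely, LD mice 21 and 34, at 0.58 and 0.79 FPKM, lay within the lower part of the ADV range. The means were 4.47 ± 2.86 and 1.23 ± 1.13 FPKM. The log2 fold change was -1.86 (SE 0.38, FDR 0.00378 by edgeR), with an approximate 95% interval from -2.65 to -1.07. Ciart had the fewest reads, between 9.5 and 273.5 per library, so the values of the lowest mice carry the largest counting error.

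The order of levels, per length, was Cry2, Per1, Ciart, Cry1, Per3 and Per2 in the LD group and Cry2, Per1, Cry1, Per2, Per3 and Ciart in the ADV group. Some neighbours in this order did not separate. Cry2 was above Per1 in 9 of 14 LD mice, Ciart above Cry1 in 8 of 14, and Cry1 above Per3 in 10 of 14, whereas Per1 was above Ciart in all 14. In the ADV group Cry1 was above Per2 in all 16 mice, and the other neighbours kept their order in 12 or 13 of 16. Ciart made up 9.63 ± 4.51% of the summed FPKM of the 6 genes in the LD group and 3.24 ± 2.26% in the ADV group, and Cry1 11.7 ± 5.24% and 19.2 ± 5.94%. Among the genes tested, Cry2 was more abundant than 76.5% by mean FPKM and Per2 than 31.3%.

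Ratios between members within a mouse do not depend on how libraries are scaled to each other. Of the 15 pairs, 10 had an adjusted p under 0.05 for the group difference in mean log2 FPKM ratio (two-sided permutation test, 100000 resamples). Adjustment was by Benjamini-Hochberg over the 15 pairs, and nothing was added to the FPKM values. Each of these 10 pairs holds Per3, Cry1 or Ciart, the members that also differed singly, and the pairs share genes. Ratios between other genes were not tested, so the count is a description. Per3 to Cry1 went from 0.701 in the LD group to 0.276 in the ADV group, a log2 difference of -1.34 (p = 1e-05, the smallest the resamples can give, adjusted p = 0.00015), and 12 of 16 ADV mice were below the lowest LD mouse. Cry1 to Ciart differed most, with geometric means of 1.29 and 6.77 and a log2 difference of 2.39 (p = 0.00018, adjusted p = 0.00045). That ratio exceeded the LD median in all 16 ADV mice. Every pair with Ciart had an adjusted p under 0.05, and so did every pair with Cry1 but Per2 to Cry1, whose log2 difference was -0.57 (adjusted p = 0.0862). The other 4 pairs not past the test were Per1 with Per2, Per3 and Cry2, and Per2 with Cry2. The Per2 to Cry2 ratio differed by 0.10 on the log2 scale (p = 0.658), with geometric means of 0.153 and 0.164.

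**Figure D2:**
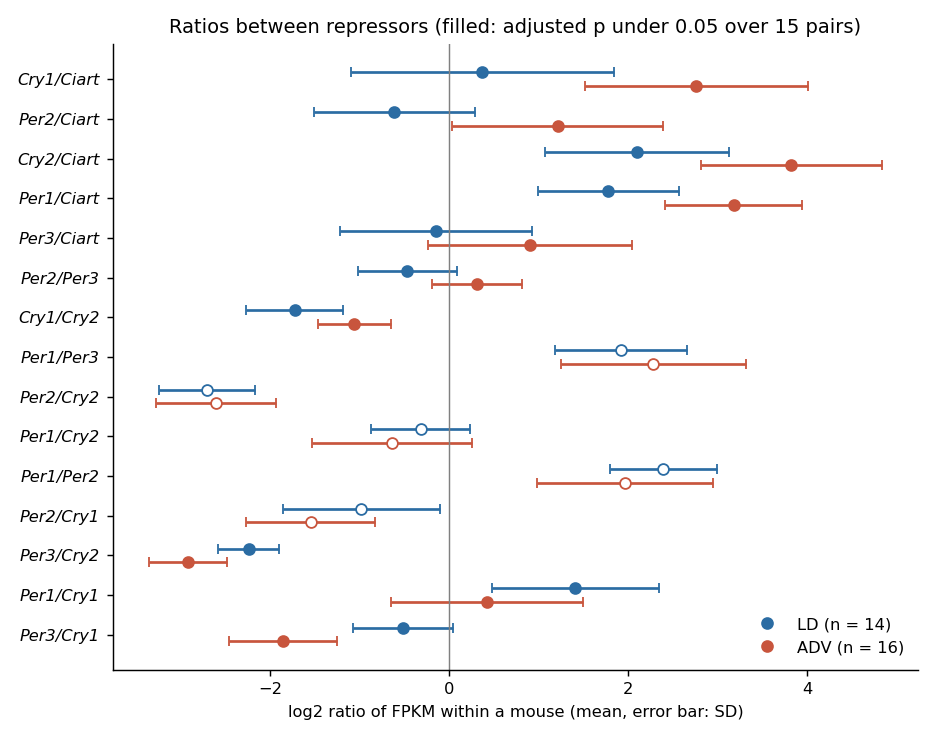
Log2 ratio of FPKM between each of 15 pairs of repressors within a mouse, as the mean and SD of the LD group (blue, n = 14) and the ADV group (red, n = 16), ordered by the difference, with filled points where the adjusted p over the pairs was under 0.05. The ratios of the other members to Ciart lie at the top, higher in ADV mice, and Per3 to Cry1 lies at the bottom, lower in ADV mice.

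Other genes of the loop differed in both directions as well. Among the activators and the nuclear receptors that act on Bmal1, 6 of 7 were tested, 1 rose and 2 fell with an FDR under 0.05, and the median log2 fold change was -0.26, against 0.003 over all genes. An FDR under 0.05 was reached by 10.8% of all genes tested. Bmal1, which encodes the partner of CLOCK, had a log2 fold change of 0.64. The repressors of Bmal1 transcription, Nr1d1 and Nr1d2, had log2 fold changes of -0.996 and -0.703. The edgeR FDRs of these genes were between 0.000153 and 0.0284. Among 6 PAR bZIP and DEC factors, 4 fell and 1 rose, with a median log2 fold change of -0.34. Dbp, at -1.66 (SE 0.25, FDR 0.000482 by edgeR), and Nfil3, at 1.28 (SE 0.20, FDR 0.000489 by edgeR), encode an activator and a repressor that compete for the D-box. Named next by size were Bhlhe40 at -0.64 and Hlf at -0.38.

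**Figure D3:**
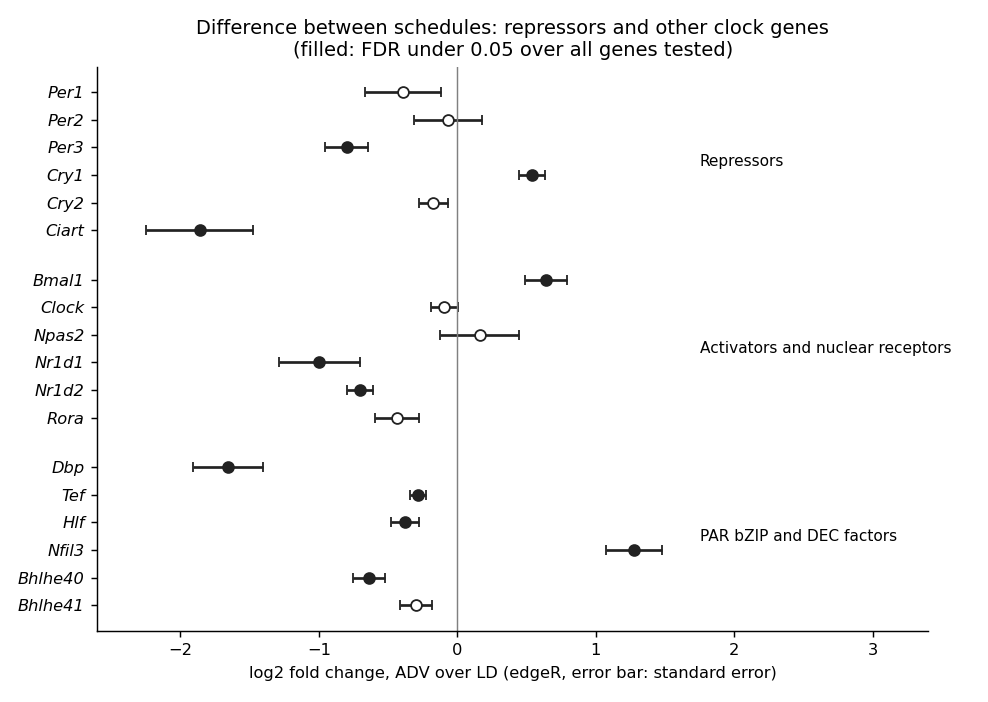
Log2 fold change of ADV over LD (points) with its standard error (bars) from edgeR for the 6 repressors, 6 activators and nuclear receptors, and 6 PAR bZIP and DEC factors, with filled points where the FDR over all genes tested was under 0.05. Ciart, at -1.86, and Dbp, at -1.66, lie farthest to the left, and Nfil3, at 1.28, farthest to the right.

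Genes for kinases, ubiquitin ligases and partners that act on the PER and CRY proteins had log2 fold changes between -0.55 and 0.20, with a median of -0.06. Of 17 tested among 18 listed, 4 fell, 1 rose and 12 did not pass an FDR of 0.05. Over all genes tested, 10.8% had an FDR under 0.05. Usp2, a deubiquitinase that acts on clock proteins and is itself rhythmic, fell from 47.9 ± 19.2 to 33.3 ± 5.37 FPKM, a log2 fold change of -0.55 (SE 0.15, FDR 0.0212 by edgeR). Prkaa2, an AMP-activated kinase subunit that marks cryptochromes for degradation, had a log2 fold change of -0.27, Sfpq, a PER-bound RNA-binding protein, one of 0.20, and Cul1, a scaffold of ubiquitin ligases, one of -0.13 (edgeR FDRs between 0.0126 and 0.0441).

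The signals that induce Per1 and Per2 were followed through gene lists. For comparison, 10.8% of all genes tested had an FDR under 0.05, and a list of 9 or 10 genes is too short to show a share below that. None of 9 factors that act on Per promoters (CREB family, CRTC, SIK1, HSF1 and glucocorticoid receptor genes) had an FDR under 0.05, and the most abundant, Hsf1, was at 18.6 ± 1.28 and 19.8 ± 1.76 FPKM (edgeR FDR 0.261). None of 10 glucocorticoid receptor targets passed either, with a median log2 fold change of 0.18. The most abundant of them, Tsc22d3, was at 82.6 ± 16.1 and 90.5 ± 22.9 FPKM (edgeR FDR 0.552). Of 10 HSF1 targets, 8 rose and none fell, with a median log2 fold change of 0.43. The largest rises were in Hspa1b and Hspa1a, near-identical genes between which reads can be exchanged, at 2.67 and 2.41, and in Dnajb1 at 1.11 and Hspb1 at 0.75. Hspa1b, Hspa1a and Dnajb1 varied widely among ADV mice, at 8.21 ± 12.1, 8.80 ± 11.2 and 4.40 ± 4.96 FPKM, and Hspb1 less, at 162 ± 56.5 FPKM. Of 8 immediate early genes tested, 5 rose and none fell, with a median of 0.94. Atf3, Fos, Nr4a3 and Egr1 had log2 fold changes of 2.43, 2.01, 1.77 and 1.45 (edgeR FDRs between 0.00337 and 0.0282), beside a Per1 value of -0.39 that did not pass. The part of these responses in the levels of the repressors was not tested.

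The spread between mice of one group was large for most of these genes. The SD of log2 CPM in LD mice was 1.31 for Ciart, 0.81 for Per2, 0.80 for Per1, 0.43 for Per3, 0.39 for Cry2 and 0.24 for Cry1, where the median of all genes was 0.18. In ADV mice it was 1.05, 0.70, 0.95, 0.45, 0.17 and 0.29 in the same order of genes, where the median of all genes was 0.20. Ciart was thus more variable than 99.9% of the genes tested in the LD group and 99.6% in the ADV group. Cry2 was more variable than 89.1% of genes among LD mice and than 37.1% among ADV mice. Its coefficient of variation of FPKM was 28.01% in LD mice and 10.7% in ADV mice. The mean absolute deviation of Cry2 was lower by 0.18 in ADV mice on the log2 scale (standard error 0.06, limma p = 0.00623). Its FDR over all genes tested was 0.732, so the difference did not pass. A permutation test of the SDs was run on each of the 6 members without adjustment. It gave p = 0.00726 for Cry2 and p between 0.348 and 0.89 for the others. Leaving out LD mouse 33 moved the difference in mean absolute deviation of Cry2 from -0.18 to -0.13. Over all genes, 0% were called for a difference in spread (0 of 12030 by limma at an FDR of 0.05, and 803 at an unadjusted p under 0.05). The other members had limma FDRs between 0.862 and 0.993.

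Among LD mice, the members other than Cry1 mostly varied together, and in ADV mice few pairs passed the test. Pearson's r of log2 CPM had an adjusted p under 0.05 for 9 of 15 pairs in LD mice (8 by Spearman's rho) and for 2 of 15 in ADV mice (2 by rho), with Benjamini-Hochberg adjustment over the 30 permutation tests. The median r was 0.67 in LD mice and 0.16 in ADV mice. The 9 pairs were all pairs among Per1, Per2, Per3, Cry2 and Ciart but Per1 with Per3. The share of pairs of other genes that would pass was not computed. All genes of a library share its depth, its RNA quality and the hour of its mouse, so these counts are descriptions and not particular to the repressors. In LD mice Per1 and Ciart had r = 0.83 (rho = 0.79, adjusted p of r 0.004, of rho 0.00665 by permutation), and r was 0.76 without the 2 mice farthest from the Per1 median. Per2 and Cry2 had r = 0.82 (rho = 0.82, adjusted p 0.004 and 0.0064) and 0.81 without such mice. Per3 with Cry2 had r = 0.66 (rho = 0.63, adjusted p 0.0278 and 0.0511 by permutation) and Per3 with Ciart r = 0.67 (rho = 0.74, adjusted p 0.0274 and 0.0132). Without LD mouse 22, r was 0.63 and 0.64 (adjusted p = 0.0537 for both by permutation), and without LD mouse 34 it was 0.63 and 0.58 (adjusted p = 0.0657 and 0.1). Without the 2 mice farthest from the Per3 median r was 0.61 and 0.55, no longer past the test (adjusted p = 0.0971 and 0.164 by permutation). Cry1 was the member apart, with negative r to each of the others in LD mice, from -0.61 with Ciart (adjusted p = 0.051) to -0.13 with Per2.

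In ADV mice, Per1 with Ciart (r = 0.71, rho = 0.66, adjusted p 0.00849 and 0.0221 by permutation) and Per2 with Per3 (r = 0.70, rho = 0.72, adjusted p 0.00849 and 0.0106) were the pairs past the test. Without the 2 mice farthest from the median of the first gene, r was 0.70 and 0.79. No pair had a difference in r between the groups that passed adjustment over the 15 pairs. The largest differences were -0.62 for Per3 with Ciart and -0.58 for Per2 with Ciart (permutation p = 0.0344 and 0.0355, adjusted p = 0.266 for both), so the lower number of pairs in ADV mice is not shown to be a difference between the schedules.

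**Figure D4:**
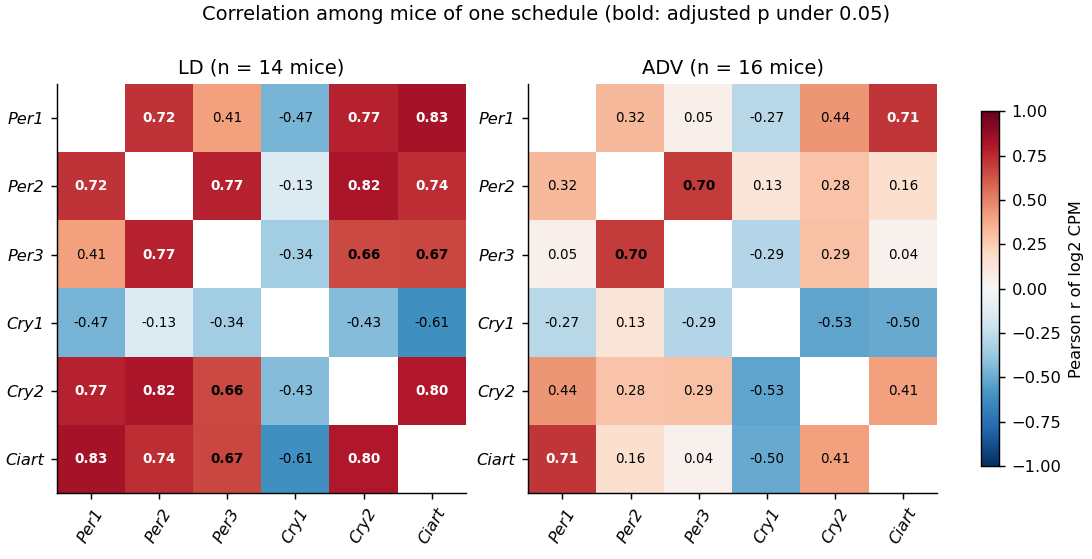
Pearson r of log2 CPM between the 6 repressors among LD mice (left, n = 14) and ADV mice (right, n = 16), from -1 (blue) to 1 (red), in bold where the adjusted p over the 30 tests was under 0.05. Of the 15 pairs, 9 are bold among LD mice and 2 among ADV mice, and the Cry1 row is mostly blue in both.

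LD mice were split at the widest gap in their Bmal1 levels on the log2 scale. The Bmal1 level was between 5.75 and 9.23 FPKM in 7 LD mice and between 12.1 and 14.8 FPKM in the other 7. That the gap is empty follows from this choice, and whether the mice form separate sets was not tested. Within these sets of 7, chosen after the data were seen, no pair of repressors had an adjusted p under 0.05 by an exact permutation test over 30 tests. The 9 pairs had r between 0.25 and 0.76 (median 0.54) in the mice with low Bmal1 and between -0.14 and 0.84 (median 0.43) in those with high Bmal1, and 9 and 8 of them kept a positive sign. Per3 with Cry2 (-0.14), Per3 with Ciart (0.04) and Per2 with Per3 (0.09) were near 0 among the mice with high Bmal1, whereas Cry2 with Ciart was at 0.84 there and at 0.25 among those with low Bmal1. In a set of 7 mice, an r of 0.84 had an exact adjusted p of 0.315.

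Because of these sets, the relation of LD repressor levels to Bmal1 is also given within each. Over all 14 LD mice, where r includes the gap between the sets, r with Bmal1 was -0.92 for Per3, -0.82 for Per2, -0.76 for Ciart and -0.72 for Cry2. Their adjusted p was between 0.00036 and 0.0137 over 36 permutation tests, but Cry2 did not pass by rho (adjusted p = 0.0862). Per1 and Cry1, at -0.57 and 0.39, did not pass (adjusted p = 0.0731 and 0.252 by permutation). Per3 had an r of -0.97 with Bmal1 in the 7 mice with low Bmal1 (exact permutation p = 0.00119, adjusted p = 0.0143 over 12 tests) and of -0.70 in the 7 with high Bmal1 (exact p = 0.0778). In the 16 ADV mice r was -0.90 (rho = -0.77, adjusted p 0.00054 and 0.00641 over 36 permutation tests) and -0.82 without the 2 mice farthest from the Per3 median. Per3 was thus lower where Bmal1 was higher in both LD sets and in the ADV group. It was past the test in the ADV group and in the mice with low Bmal1, a set chosen after the data were seen. Per2 followed in ADV mice, with r = -0.69 (rho = -0.73, adjusted p 0.00786 and 0.0122), and in the LD sets it was at -0.76 and 0.43, neither past the test (exact adjusted p = 0.295 and 0.55). Ciart had an r of -0.07 with Bmal1 in ADV mice (adjusted p = 0.84), and of -0.62 and 0.08 in the LD sets. Its r over all LD mice was not shown to differ from that in ADV mice. The difference was 0.69 (permutation p = 0.00444, adjusted p = 0.0799 over 18 tests). ADV mouse 21, with the lowest Bmal1 of its group at 6.75 FPKM, had the highest Per3 of its group. Without it r of Per3 with Bmal1 in ADV mice was -0.81.

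**Figure D5:**
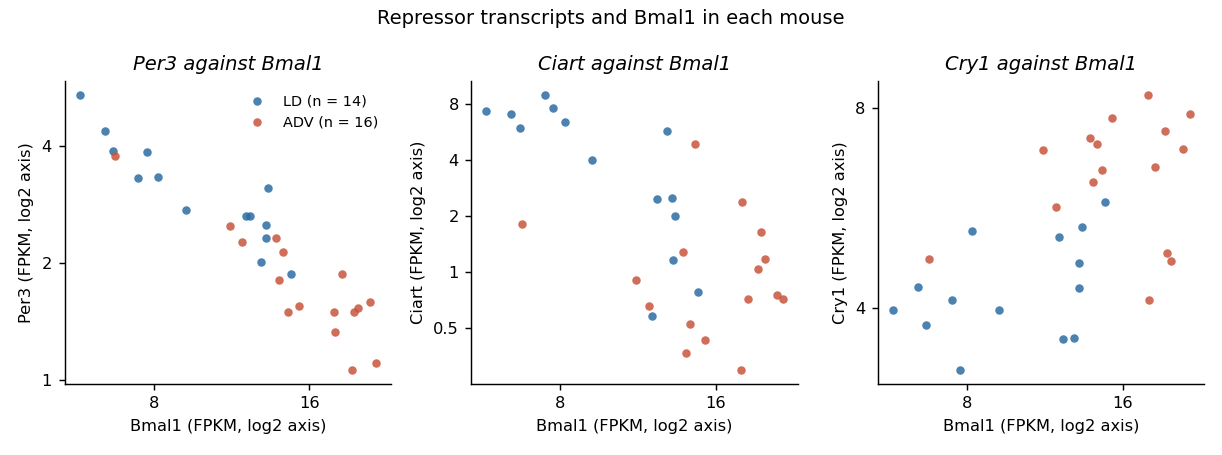
Per3 (left), Ciart (middle) and Cry1 (right) against Bmal1 in each mouse, in FPKM on log2 axes, with LD mice in blue (n = 14) and ADV mice in red (n = 16). Per3 falls as Bmal1 rises in both groups, the LD mice lie on both sides of a gap in Bmal1 between 9.23 and 12.1 FPKM, and Ciart of ADV mice shows no slope (r = -0.07).

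Dbp, a direct target of CLOCK and BMAL1, varied with 5 of the 6 repressors among LD mice and with 2 among ADV mice, inversely for Cry1 (adjusted p of r under 0.05 over 36 permutation tests). Dbp was at 25.3 to 56.9 FPKM in the 7 LD mice with low Bmal1 and at 3.36 to 26.4 FPKM in the 7 with high Bmal1. The r values with Dbp over all LD mice therefore include the difference between these sets, and r within each set was not computed. The share of other genes that vary with Dbp was not computed either. Among LD mice, r with Dbp was 0.83 for Per3 and 0.83 for Ciart (rho = 0.82 for both, adjusted p of r 0.00144, of rho 0.00641 for both by permutation), and 0.77 and 0.78 without the 2 mice farthest from the median. Per2 and Cry2 were at 0.64 each (adjusted p = 0.0383 for both), and without 1 of 8 LD mice for Per2 or 1 of 7 for Cry2 the adjusted p was over 0.05, with lowest r values of 0.59 and 0.61. Per1, at 0.51, did not pass (adjusted p = 0.105). In ADV mice Per3 had r = 0.66 with Dbp (adjusted p = 0.0195) but rho = 0.41 (adjusted p = 0.206), and r was 0.47 without ADV mouse 21 and 0.59 without ADV mouse 31 (adjusted p = 0.14 and 0.0522 by permutation). Ciart was at 0.41 there, Per1 at 0.19, Per2 at 0.36 and Cry2 at 0.55, none past the test (adjusted p between 0.0609 and 0.626). No member's r with Dbp was shown to differ between the groups (lowest adjusted p = 0.257, for Ciart). Cry1 had negative r with Dbp in both groups, -0.64 in LD mice (rho = -0.57, adjusted p 0.0383 and 0.0983 by permutation) and -0.63 in ADV mice (rho = -0.72, adjusted p 0.0276 and 0.0123). It was -0.45 without LD mouse 34 and -0.55 without ADV mouse 21 (adjusted p = 0.228 and 0.0731), and between -0.63 and -0.61 without LD mouse 21, 22, 32 or 33, where the adjusted p was also over 0.05. Without the 2 mice farthest from the Cry1 median it was -0.34 and -0.51 (adjusted p = 0.419 and 0.134). Per2 and Nr1d1 had r = -0.70 in ADV mice (rho = -0.69, adjusted p 0.0137 and 0.016) and -0.17 in LD mice. This difference between groups of -0.53 had a permutation p of 0.117. Cry1 and Nr1d1 had r = -0.61 in LD mice (rho = -0.56, adjusted p 0.0476 and 0.0983 by permutation) and -0.56 in ADV mice (adjusted p = 0.0566). In LD mice the adjusted p of r was over 0.05 in 11 of 30 fits that left out 1 mouse.

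Likeness to other genes was measured by r of log2 CPM over all 30 libraries after the group means were removed, among 10673 genes with a mean over 1 FPKM, and is given without a test. All genes of a library share its depth, its RNA quality and the hour of its mouse, so such r values are descriptions. The genes most like Per1 were Map3k6, a stress kinase (r = 0.92), Arrdc2, an arrestin-domain gene (0.87), and Tob2, an antiproliferative factor (0.86), and 38 genes had r over 0.7. The most opposite was Cxxc5 (-0.77). Those most like Per2 were Mylk4, a myosin light chain kinase (0.82), Fam76a (0.76) and Tspan4 (0.74), with Sh3bp5 at -0.78.

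Per3 was closest to the proteoglycan gene Sdc2 (0.75), to Lrrn4cl (0.75) and to Dbp (0.73), and its lowest r of all genes compared was with Bmal1 (-0.91). Cry1 had few genes like it, with Hexim1, an inhibitor of transcription elongation, at 0.72, Rpl7l1 and the corepressor Tle1 at 0.70, and Dhx40 at -0.75. Cry2 had most, 48 genes with r over 0.7, led by Skic2, an RNA helicase (0.84), Nol6, a nucleolar gene (0.84), and Otud5, a deubiquitinase (0.80), with Miga2, of mitochondrial fusion, at -0.80. For Miga2 r was -0.90 in LD mice and -0.40 in ADV mice. Among the genes most like Ciart were Sat1, the catabolic enzyme of polyamines (0.78), and Ucp3, a mitochondrial carrier (0.74), with Ypel2 at -0.82. Between Sat1 and Ciart r was 0.83 in LD mice and 0.75 in ADV mice.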

How the data were processed

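Gastrocnemius muscle of 14 LD and 16 ADV mice was sequenced (stranded poly(A) RNA, TruSeq), and groups were taken from the sample titles. Following the study's methods, the authors trimmed reads with Trimmomatic, aligned them to GRCm39 with STAR, discarded poorly mapped reads with SAMtools and quantified exons with Homer. The submitters' processing notes name STAR 2.7.10a and HOMER 4.11. The authors deposited raw counts, in which a mate adds 0.5 read (expected counts in this sense, 14.8% not whole), and FPKM for 57186 rows. Whether counting used the strand is not given in the sources used here.

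Counts were rounded and compared with edgeR 4.0.16 in R 4.3.3 (TMM, quasi-likelihood test). A called gene had an FDR below 0.05 and differed by more than 1.3-fold. Approximate 95% intervals are the log2 fold change plus or minus a t quantile times its standard error, which was derived from the F statistic. Spread was compared with limma 3.58.1 on absolute deviations of log2 CPM (prior count 0.5) from the group median. Ratios and correlations were tested by 100000 permutations with numpy 2.4.6, and correlations in sets of 7 mice by exact permutation with scipy 1.17.1. DESeq2 1.42.0, limma on log2 FPKM, the Wilcoxon rank-sum test (exact, or a normal approximation in the 2591 genes with tied values, none a member), other size factors and filters, summed rows, a block, a clock score, a GC content trend and leaving out each mouse were alternatives. Tests were checked on simulated data.

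The members, gene lists and tests were chosen with earlier results of these data known. Named genes were the members, 3 reference clock genes (Bmal1, Nr1d1 and Dbp), up to 4 genes of each list with an FDR under 0.05 (or the most abundant), and for each member the 3 genes with the highest and the 1 with the lowest r. Some genes of the lists and of this rule are not reported here, and the counts of the lists leave them out. Replicates are separate mice. At this depth (18875468.5 to 28512674 read pairs per library), genes with few reads, such as Ciart in ADV mice, carry a large counting error. FPKM of different genes was compared per length only.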

Additional observations from a re-analysis of the deposited data

How the results depend on the processing

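Of 13 other settings of the test over all genes, 9 called between 168 and 307 genes, where the reported test called 252. limma on log2(FPKM + 1) called 124, the 28 libraries with shared label numbers called 137 with the label number as a replicate block and 151 without it, and the clock score as a covariate left 0, with the schedule and the score partly confounded. Pairing of the mice by label number was not evident from their residual correlations, which cannot exclude it. Same-numbered mice deviated together with r between -0.26 and 0.43 (median 0.01), 6 of 14 pairs were over 0.1, and 3 LD and 2 ADV mice correlated best with their own number. With the block, Per3, Cry1 and Ciart stayed past an FDR of 0.05 (log2 fold changes -0.82, 0.52 and -2.06) and Per1, Per2 and Cry2 did not. With the clock score, the log2 fold change was 0.19 for Per1, 0.98 for Per2, 0.062 for Per3 and 0.31 for Cry2, all reversed, and 0.16 for Cry1 and -0.14 for Ciart, no longer past the test. The other 12 settings kept the direction and the side of the threshold of all 6 members, with Per3 between -0.84 and -0.55, Cry1 between 0.46 and 0.56 and Ciart between -2.19 and -1.19. Leaving out each mouse gave 190 to 302 calls, kept the FDR of Per3, Cry1 and Ciart under 0.05 in all 30 fits, and moved Per2 between -0.15 and 0.037, positive without LD mouse 30 or 33. The difference in spread of members far from the threshold changed sign when 1 mouse was left out, between -0.082 and 0.10 for Per1, -0.10 and 0.023 for Per2, and -0.077 and 0.034 for Per3. The ratio of Per2 to Cry1 passed the test in 4 of 30 such fits (without LD mouse 21, 27 or 34 or ADV mouse 21).

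Correlations near 0 changed sign when 1 mouse was left out, between -0.042 and 0.31 for Per2 with Ciart and between -0.16 and 0.12 for Per3 with Ciart in ADV mice, between -0.13 and 0.15 for Ciart with Bmal1 in ADV mice, and between -0.42 and 0.10 for Per2 with Nr1d1 in LD mice. Without the 2 mice farthest from the median, r was -0.14 for Per3 with Ciart and 0.0021 for Cry2 with Bmal1 in ADV mice, and 0.23 for Per2 with Nr1d1 in LD mice. Among the LD mice with high Bmal1, a split chosen after the data were seen, r was -0.14 for Per3 with Cry2, and with Bmal1 it was 0.43 for Per2, 0.35 for Cry2 and 0.077 for Ciart, against negative values over all LD mice. The cause of these changes was not tested.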
